A study of Mus musculus with 9 samples.

Results

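Genes of hepatic stellate cell quiescence and of lipid droplet storage were followed across 3 genotypes of cultured mouse stellate cells. The members were 9 genes listed by symbol: the transcription factor Hand2, the secreted proteins Angptl6, Reln and Ecm1, the retinol-esterifying enzyme Lrat, the surface receptor Ngfr, and the lipid genes Plin2, Pnpla2 and Lpl. Of these 9 genes, 6 had values among the 14020 genes of the expression table, namely Hand2, Angptl6, Ecm1, Plin2, Pnpla2 and Lpl. Lrat, Reln and Ngfr were not analysed here. The list was drawn up by gene function, with results of these libraries already known.

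RNA sequencing was available for 9 libraries of hepatic stellate cells from liver, kept in DMEM with 10% fetal bovine serum for 4 days under basal conditions. The first group, labelled as an Nbr1-Sqstm1 double knock-out, is called DKO-labelled here. The second group was knocked out for Sqstm1, the gene of the autophagy receptor p62, and is written Sqstm1 KO. The third was wild type (WT). Each group held 3 libraries. The series' design text speaks of 3 biological replicates, but names only an Nbr1 knock-out beside wild type, while the sample labels give the genotypes used here. Strain, sex and age, the way the alleles were made and any sharing of animals between libraries are not stated in the labels, so p-values measure the spread between these libraries.

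In the healthy liver, stellate cells are quiescent pericytes of the sinusoid that hold vitamin A as retinyl esters inside cytoplasmic lipid droplets. When they are activated, in injury or on culture plastic, they lose these droplets and turn into contractile cells that lay down collagen. HAND2 is a basic helix-loop-helix transcription factor of mesenchymal cells. PLIN2 coats lipid droplets, PNPLA2 (adipose triglyceride lipase) starts the breakdown of their triglycerides, and LPL, a secreted lipase, releases fatty acids from lipoproteins. ECM1 is a secreted matrix protein, and ANGPTL6 is a secreted protein of the angiopoietin-like family.

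The sequences before the transcription start of 3 members are shown because Hand2, Angptl6 and Plin2 each changed in at least 1 comparison. They were taken from RefSeq on build GRCm38.p6, which is not the build the submitters name, GRCm39. Bases inside RefSeq's span of the gene were left out, which trimmed Angptl6 by 112 bases and Plin2 by 158. Capitals mark matches, on either strand, to the CCAAT box, the GC box GGGCGG and the E-box CANNTG, the motif class that helix-loop-helix factors bind.
Hand2, chr8:57320733-57320982, plus strand: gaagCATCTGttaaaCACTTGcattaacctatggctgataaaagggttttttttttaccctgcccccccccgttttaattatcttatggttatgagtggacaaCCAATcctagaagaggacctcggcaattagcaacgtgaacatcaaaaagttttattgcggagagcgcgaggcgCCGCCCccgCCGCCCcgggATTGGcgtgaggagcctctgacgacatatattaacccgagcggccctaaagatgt
Angptl6, chr9:20879823-20879960, minus strand: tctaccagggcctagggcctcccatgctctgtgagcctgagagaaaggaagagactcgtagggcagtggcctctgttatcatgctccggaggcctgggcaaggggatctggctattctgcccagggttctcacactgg
Plin2, chr4:86670218-86670309, minus strand: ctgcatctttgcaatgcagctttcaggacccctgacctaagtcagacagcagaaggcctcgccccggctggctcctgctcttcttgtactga

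Promoter entries were matched for 8 of the 9 listed genes, all but Lpl, so no sequence is shown for Lpl although it was called too. Over the full 250 bases before the start, Hand2 had 2 matches each to the CCAAT box, the GC box and the E-box. Plin2 had 1 match to the CCAAT box and 1 to the E-box, and Angptl6 had 1 to the E-box, all of them in the bases left out above. Ecm1 had 1 match to TATAAA, at 27 bases before the start. Among 32851 RefSeq promoters of the same length, 66.2% held the E-box, 33.8% the CCAAT box, 32.7% the GC box and 12.4% TATAAA. The PPAR element, the hexamer AGGTCA repeated after 1 base and held by 0.0335% of promoters, and the retinoic acid element, the same hexamer repeated after 5 bases and held by 0.00913%, matched none of the 8. A match is a description of letters only.

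The values rested on 819677 to 1467793 counted reads per library. Sqstm1 had 45.7 ± 17.7 normalized counts in the DKO-labelled libraries, 52.8 ± 29.8 in Sqstm1 KO and 240 ± 16.1 in WT (SD, n = 3 each). Nbr1 had 90.7 ± 17.5, 78.9 ± 8.85 and 101 ± 7.64 in the same order and was not called in any comparison, so these values did not check the Nbr1 label, and all comparisons with that group depend on the label being right, which the design text, naming other genotypes, does not repeat. Sqstm1 KO replicate 3 stood apart from its group, with correlations across genes of 0.853 and 0.847 with the others. Y-linked genes differed with genotype, since the summed value of 4 such genes was 76.5 to 112 in the DKO-labelled libraries, 0 in all 3 Sqstm1 KO libraries and 176 to 177 in WT. Their part in the results below was not tested. Of 9 defining stellate cell markers only Hand2, itself a member, and Pdgfrb had values, and Des, Lrat, Rgs5, Colec11, Reln, Lhx2 and Gfap were not analysed here, so the labelled cell type was checked only in part. A broader list of 23 stellate genes, given further on, had 10 with values. The strand on which reads were counted is not stated in the labels or processing notes. ND6, the mitochondrial mRNA encoded on the strand opposite to the others, averaged 13400 over the 9 libraries, against 1732 for ND4, 1690 for COX1 and 1060 for CYTB, while ND5 averaged 10736. Among the 100 highest genes matched to an annotation, 73 shared exon bases with a gene on the other strand, against 36.3% of the other matched genes. Any value below can therefore include reads of a transcript on the other strand, also where no such transcript is annotated.

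Hand2 was higher in both knock-out groups than in WT. It had 54.5, 50.2 and 54.8 normalized counts in the DKO-labelled libraries, 57.2, 54.4 and 138 in Sqstm1 KO, against 28.6, 14.3 and 13.9 in WT. Every knock-out library lay above every WT library, and Sqstm1 KO replicate 3 was the highest of the 9. The log2 fold change was 1.52 (SE 0.38; limma adjusted p = 0.0282) in the DKO-labelled libraries against WT and 2.01 (SE 0.38; adjusted p = 0.00578) in Sqstm1 KO against WT. Without Sqstm1 KO replicate 3 the second was 1.58 (adjusted p = 0.00683). The first call ended without WT replicates 2 or 3 (limma adjusted p = 0.141 and 0.133) or without DKO-labelled replicates 1, 2 or 3 (0.0868, 0.0562 and 0.105). Between the knock-out groups the log2 fold change was -0.50 (95% interval -1.32 to 0.32; adjusted p = 0.509). In bulk RNA, fewer cells of a type and less RNA per cell cannot be told apart.

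Hand2 shares 461 exonic bases, 19.6% of its own, with Hand2os1, a long non-coding RNA gene on the other strand (GENCODE M21 on GRCm38). RefSeq on GRCm38.p6 ends Hand2os1 at base 57320859 of chromosome 8 and starts Hand2 at 57320983, so there the genes do not overlap. Hand2os1 had 21.0, 10.3 and 12.7 normalized counts in the DKO-labelled libraries, 9.19, 14.6 and 9.76 in Sqstm1 KO, against 1.36, 0.753 and 1.82 in WT. The WT values were 1, 1 and 3 reads, and both knock-out groups lay above them without overlap. Its log2 fold change was 2.73 (SE 0.50; limma adjusted p = 0.00391) in the DKO-labelled libraries against WT and 2.40 (SE 0.50; adjusted p = 0.0107) in Sqstm1 KO against WT, a call that ended without WT replicate 2 (adjusted p = 0.0559). Only knock-out libraries reached 10, so Hand2os1 passed the filter through the groups where it was higher. Both genes of the locus were called higher in the same comparisons, but the calls of Hand2os1 therefore add no support to those of Hand2. How many of the reads at the shared bases came from either transcript cannot be told apart.

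Angptl6 was nearly without reads in Sqstm1 KO and highest in the DKO-labelled libraries. It had 117, 100.5 and 103 normalized counts in the DKO-labelled libraries, 0, 3.25 and 6.51 in Sqstm1 KO, against 61.3, 49.7 and 47.3 in WT. The 3 groups did not overlap, and the Sqstm1 KO values rested on 0, 4 and 6 reads. The log2 fold change was 5.08 (SE 0.55; limma adjusted p = 5.55e-05) in the DKO-labelled libraries against Sqstm1 KO and -4.07 (SE 0.55; adjusted p = 0.000505) in Sqstm1 KO against WT. Both calls held in each of 18 alternatives, with Sqstm1 KO replicate 3 left out among them (5.71 and -4.70). Against WT, the DKO-labelled libraries had a log2 fold change of 1.01 (SE 0.55; 95% interval -0.16 to 2.18; adjusted p = 0.309). That difference was called by DESeq2 (adjusted p = 0.0218) and when only the compared groups entered the fit (limma adjusted p = 0.00917), and the adjusted p ran up to 0.533 over the alternatives.

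**Figure D1:**
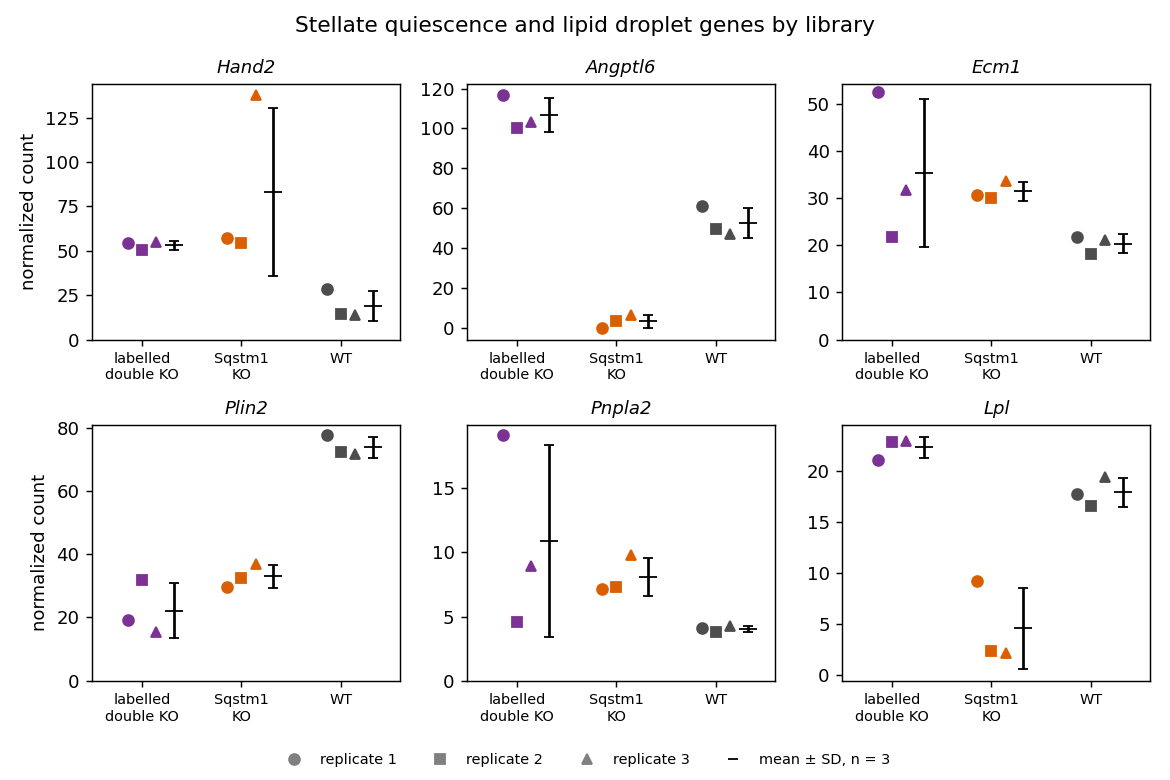
Normalized counts (vertical axes) of the 6 members with values, for the DKO-labelled libraries, Sqstm1 KO and WT; symbols are replicates 1 to 3 and the bar beside them is the mean ± SD of 3 libraries. Plin2 is highest in WT, Hand2 is lowest there, and Angptl6 and Lpl are lowest in Sqstm1 KO.

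Angptl6 shares 265 exonic bases, 16.8% of its own, with Shfl, an antiviral gene induced by interferon that lies on the other strand. Shfl had 12.4, 28.5 and 26.7 normalized counts in the DKO-labelled libraries, 27.6, 20.3 and 66.2 in Sqstm1 KO, against 12.3, 9.79 and 10.9 in WT. Its lowest group was thus WT and not Sqstm1 KO, where Angptl6 was lowest. Shfl was not called in any comparison by limma. In Sqstm1 KO against WT its log2 fold change was 1.53 (SE 0.45; limma adjusted p = 0.0647), with adjusted p from 0.0142 to 0.208 over the alternatives, and it was called by edgeR and DESeq2 (adjusted p = 0.0299 and 0.0142), under the replicate block (0.0462) and without Sqstm1 KO replicate 2 (0.0351). With Sqstm1 KO replicate 3 left out, its log2 fold change was 1.05 (adjusted p = 0.165). What share of the Angptl6 value came from either strand was not tested.

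**Figure D2:**
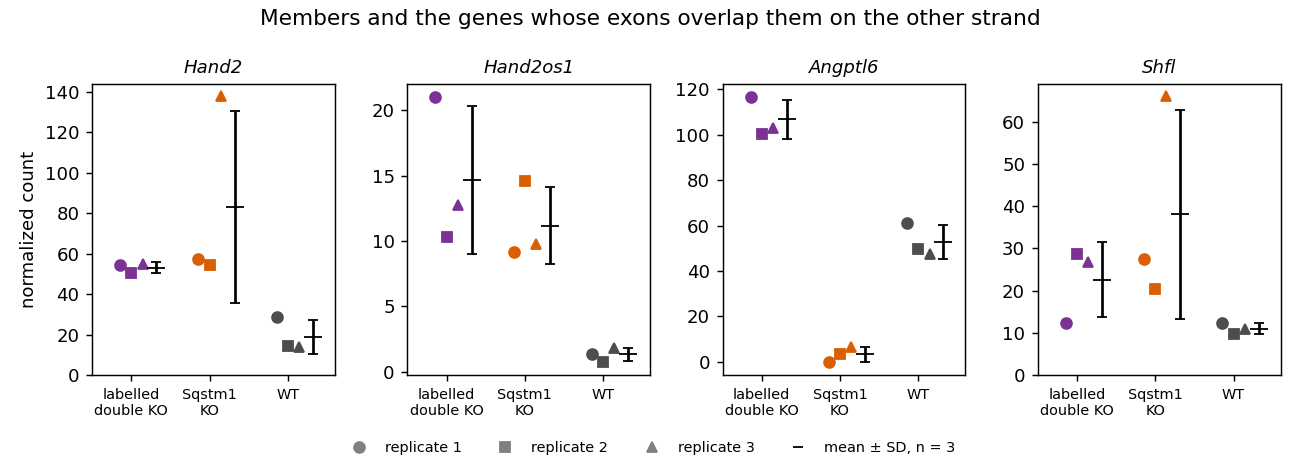
Normalized counts (vertical axes) of Hand2 and Angptl6 beside Hand2os1 and Shfl in the DKO-labelled libraries, Sqstm1 KO and WT. In GENCODE, Hand2os1 and Shfl share exon bases with Hand2 and Angptl6, in that order, on the other strand. Symbols are replicates and bars are mean ± SD, n = 3. Hand2 and Hand2os1 are both lowest in WT, while Angptl6 is lowest in Sqstm1 KO and Shfl in WT.

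Ecm1 was not called in any comparison. It had 52.6, 21.7 and 31.8 normalized counts in the DKO-labelled libraries, 30.6, 30.0 and 33.6 in Sqstm1 KO, against 21.8, 18.1 and 21.2 in WT. The Sqstm1 KO libraries all lay above WT, and DKO-labelled replicate 2 lay within the WT range. The log2 fold change was 0.68 (95% interval -0.04 to 1.41; limma adjusted p = 0.266) in the DKO-labelled libraries against WT and 0.60 (-0.12 to 1.33; adjusted p = 0.359) in Sqstm1 KO against WT. Between the knock-out groups it was 0.08 (-0.65 to 0.81; adjusted p = 0.929). Ecm1 has no exon overlap on the other strand in the annotation used.

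Plin2, the droplet coat protein, was lower in both knock-out groups. It had 19.1, 32.0 and 15.3 normalized counts in the DKO-labelled libraries, 29.6, 32.5 and 36.9 in Sqstm1 KO, against 77.6, 72.3 and 71.6 in WT. The lowest WT library was above every knock-out library, and the knock-out groups overlapped each other. The log2 fold change was -1.76 (SE 0.31; limma adjusted p = 0.00297) in the DKO-labelled libraries against WT, which was called in each of 18 alternatives. In Sqstm1 KO against WT it was -1.14 (SE 0.31; adjusted p = 0.0441). This second call ended without WT replicates 1, 2 or 3 (limma adjusted p = 0.152, 0.159 and 0.129) or Sqstm1 KO replicates 1 or 2 (0.111 and 0.0810), and was kept without Sqstm1 KO replicate 3 (0.0293). Between the knock-out groups the log2 fold change was -0.61 (95% interval -1.27 to 0.04; adjusted p = 0.301). Of 6 adipocyte markers only Cfd had values, at 0 to 7.64 in the DKO-labelled libraries, 7.15 to 13.0 in Sqstm1 KO and 9.79 to 16.3 in WT, so it too was lowest in the first group and highest in WT. Its part in the Plin2 result was not tested.

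Pnpla2 was too low to be tested: testing asked for 10 or more in 3 libraries, and it reached 10 in 1 library. It had 19.1, 4.57 and 8.92 normalized counts in the DKO-labelled libraries, 7.15, 7.30 and 9.76 in Sqstm1 KO, against 4.09, 3.77 and 4.24 in WT. These were 20, 4 and 7 reads, 7, 9 and 9 reads, and 3, 5 and 7 reads. Every knock-out library lay above WT, the nearest of them, DKO-labelled replicate 2, by a margin under 1 read. With no filter the log2 fold change was 1.04 (SE 0.53; limma adjusted p = 0.289) in the DKO-labelled libraries against WT and 0.84 (SE 0.53; adjusted p = 0.436) in Sqstm1 KO against WT, so neither difference was called.

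Lpl was low in Sqstm1 KO. It had 21.0, 22.8 and 22.9 normalized counts in the DKO-labelled libraries, 9.19, 2.43 and 2.17 in Sqstm1 KO, against 17.7, 16.6 and 19.4 in WT. All Sqstm1 KO libraries lay below the other groups, on 9, 3 and 2 reads. The log2 fold change was 2.27 (SE 0.46; limma adjusted p = 0.00841) in the DKO-labelled libraries against Sqstm1 KO, called in each of 17 alternatives. Against WT, the log2 fold change in Sqstm1 KO was -1.97 (SE 0.46; adjusted p = 0.0223). That call ended without WT replicates 1, 2 or 3 (limma adjusted p = 0.0881, 0.0854 and 0.0960), without Sqstm1 KO replicate 2 (0.0590), and when the third group was left out of the fit (0.0633). Without Sqstm1 KO replicate 3 it was -1.67 (adjusted p = 0.0357). In the DKO-labelled libraries against WT the log2 fold change was 0.30 (95% interval -0.69 to 1.30; adjusted p = 0.760). A list of 10 macrophage markers, of which 4 had values and 1 passed the filter, was also lowest in Sqstm1 KO. Its summed values were 14.3 to 29.3 in the DKO-labelled libraries, 8.68 to 12.3 in Sqstm1 KO and 20.3 to 35.4 in WT. Of 8 endothelial markers 1 had values, at 2.87 to 12.6, 2.17 to 8.17 and 9.70 to 16.3 in the same order. The part of either list in the result was not tested. Plin2, Pnpla2 and Lpl have no exon overlap on the other strand in the annotation used.

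**Figure D3:**
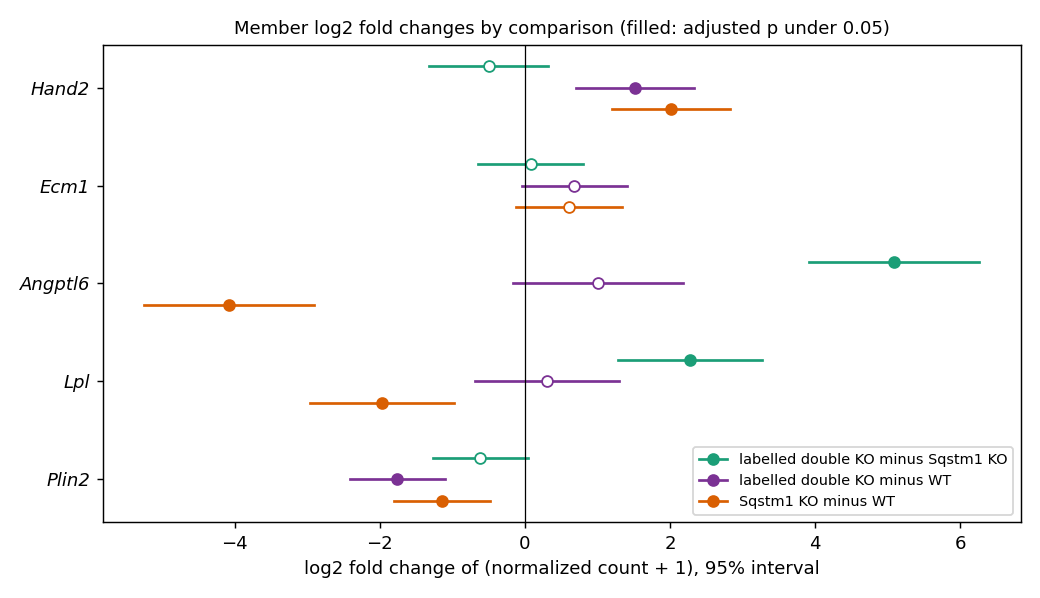
Log2 fold changes of normalized count plus 1 (horizontal axis) of the 5 tested members in each comparison, with 95% intervals from the limma model; filled points had an adjusted p under 0.05. Angptl6 and Lpl, lowest in Sqstm1 KO, lie above 0 in the DKO-labelled libraries against Sqstm1 KO and below 0 in Sqstm1 KO against WT. The shared Sqstm1 KO libraries fix these opposite sides. Hand2 and Plin2 keep their side against WT in both knock-out groups, in comparisons that share the WT libraries.

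By comparison, 2 of the 5 tested members were called in the DKO-labelled libraries against Sqstm1 KO, where 5.93% of 10118 tested genes were called (4.42% higher and 1.51% lower), and 2 of the 5 had groups that did not overlap, as did 21% of tested genes. Both, Angptl6 and Lpl, were higher. In the DKO-labelled libraries against WT, Hand2 was called higher and Plin2 lower, where 6.42% of tested genes were called (4.11% higher and 2.31% lower). Groups did not overlap for Hand2, Angptl6, Plin2 and Lpl, against 31.2% of tested genes. In Sqstm1 KO against WT, Hand2 was called higher and Angptl6, Plin2 and Lpl lower, where 5.61% of tested genes were called (2.43% higher and 3.18% lower), and 5 of the 5 had groups that did not overlap, against 26%. Angptl6 and Lpl passed the filter through WT and the DKO-labelled libraries alone, so these counts describe the 5 genes and not the whole list. The comparisons share groups and are not independent of each other.

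The order of the levels thus took 3 forms. For Hand2, Sqstm1 KO and the DKO-labelled libraries were not told apart and WT was lower. For Plin2, WT was highest and the knock-out groups were not told apart. For Lpl, the DKO-labelled libraries and WT were not told apart and Sqstm1 KO was lower, and for Angptl6 the order was the same, with the DKO-labelled libraries above WT in every library but not called.

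Other genes of lipid droplet coats and assembly, a list of 25 genes with 12 tested, were mostly uncalled. For this and each later list, the shares of all tested genes called are the background. They were 5.93% in the DKO-labelled libraries against Sqstm1 KO, 6.42% against WT and 5.61% in Sqstm1 KO against WT. With Sqstm1 KO set against WT, 0 rose, 2 fell and 10 were not called, and the median log2 fold change was -0.36, beside -0.01 over all tested genes. The members that fell were Plin2 and Acsl4, which activates arachidonic acid for lipid synthesis. Acsl4 had 55.2 ± 8.92 normalized counts in the DKO-labelled libraries, 25.7 ± 12.3 in Sqstm1 KO and 69.9 ± 10.1 in WT (SD, n = 3; limma adjusted p = 0.0234 for Sqstm1 KO against WT). Its call ended without WT replicates 1, 2 or 3 (adjusted p = 0.0845, 0.0740 and 0.109) and with only the compared groups in the fit (0.0624), and without Sqstm1 KO replicate 3 the log2 fold change was -1.07, against -1.53 with it. In the DKO-labelled libraries against WT, Plin2 was the 1 gene of the list that fell and 0 rose (median 0.02), and against Sqstm1 KO 0 of 12 were called by limma, edgeR and DESeq2 (median 0.30), with 1 at an unadjusted p under 0.05. The related coat protein genes Plin3 and Plin4 were not called. Plin3 had 25.5 ± 1.41, 26.9 ± 6.09 and 22.5 ± 6.49 normalized counts in the DKO-labelled libraries, Sqstm1 KO and WT, and Plin4 had 12.2 ± 7.44, 11.6 ± 8.25 and 13.7 ± 9.51.

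Of 13 lipolysis genes, 6 were tested and 0 were called in each of the 3 comparisons by limma, edgeR and DESeq2. At an unadjusted p under 0.05 there was 1 in the DKO-labelled libraries against Sqstm1 KO, 1 against WT and 0 in Sqstm1 KO against WT. Among them were Abhd5, the coactivator of PNPLA2, with 16.2 ± 5.10 normalized counts in the DKO-labelled libraries, 13.7 ± 4.16 in Sqstm1 KO and 11.2 ± 6.16 in WT, and Lipe, hormone-sensitive lipase, with 23.7 ± 4.68, 40.8 ± 9.21 and 27.6 ± 10.4 in the same order (SD, n = 3). Of 18 genes of fatty acid and lipoprotein uptake, 7 were tested. Of these, 1 rose and 1, Lpl, fell in Sqstm1 KO against WT. The gene that rose was Fabp5, an intracellular fatty acid carrier, with 20.2 ± 5.56 normalized counts in the DKO-labelled libraries, 51.2 ± 25.4 in Sqstm1 KO and 12.2 ± 4.97 in WT (limma log2 fold change 1.94, adjusted p = 0.0165). The call ended without WT replicate 1 (adjusted p = 0.0936). Lpl was the only gene of the list called in the DKO-labelled libraries against Sqstm1 KO, and against WT limma, edgeR and DESeq2 each called 0 of 7, with 0 at an unadjusted p under 0.05. Fabp5 therefore stood highest in the group in which Lpl stood lowest.

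Vitamin A handling was covered by 22 listed genes, of which 5 were tested. Aldh1a1, a retinaldehyde dehydrogenase, was highest in Sqstm1 KO, with 0, 1.14 and 1.27 normalized counts in the DKO-labelled libraries, 19.4, 13.8 and 32.5 in Sqstm1 KO, against 1.36, 7.53 and 1.82 in WT. Only the Sqstm1 KO libraries reached 10, so Aldh1a1 was tested through the group where it was highest. From 2 reads against 66, it was lower in the DKO-labelled libraries than in Sqstm1 KO by a ratio of 0.0351. The 95% counting interval, 0.00416 to 0.132, leaves out the spread between libraries. In limma, Aldh1a1 had a log2 fold change of -3.67 (SE 0.67, adjusted p = 0.00404). Its call as higher in Sqstm1 KO than in WT (adjusted p = 0.0444) ended without WT replicates 1 or 3 (0.173 and 0.157), Sqstm1 KO replicates 1, 2 or 3 (0.111, 0.0618 and 0.109) or DKO-labelled replicate 3 (0.0535).

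Rarres2, the chemerin gene, had 62.7 ± 21.9 normalized counts in the DKO-labelled libraries, 39.6 ± 23.0 in Sqstm1 KO and 20.2 ± 9.54 in WT (SD, n = 3) and was called higher in the first against WT (limma adjusted p = 0.0357). The call ended when any DKO-labelled replicate was left out (adjusted p = 0.150, 0.0526 and 0.0871 for replicates 1, 2 and 3) or WT replicate 2 or 3 was (0.110 and 0.178), and Rarres2 shares exon bases with Lrrc61 on the other strand.

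Among 18 transcription factors of stellate identity and quiescence, 7 were tested, and apart from Hand2 only Rarb, a retinoic acid receptor, was called. Rarb had 12.4, 9.13 and 14.0 normalized counts in the DKO-labelled libraries, 3.06, 2.43 and 1.08 in Sqstm1 KO, against 15.0, 12.1 and 10.3 in WT. Like Lpl, all 3 Sqstm1 KO libraries lay below the other groups, and Rarb passed the filter through those groups alone. The log2 fold change was 2.04 (SE 0.48; limma adjusted p = 0.0198) in the DKO-labelled libraries against Sqstm1 KO, a call that ended without DKO-labelled replicates 1 or 3 (adjusted p = 0.0641 and 0.0904) and when only the compared groups entered the fit (0.0914). In Sqstm1 KO against WT it was -2.11 (SE 0.48; adjusted p = 0.0179), a call that ended without WT replicates 1, 2 or 3 (0.0947, 0.0878 and 0.0581). Rarb shares exon bases with Top2b on the other strand. Over the 7 factors, 1 rose and 0 fell in the first of these comparisons (median -0.21), 1 rose and 1 fell in the second (-0.52), and 1, Hand2, rose and 0 fell in the DKO-labelled libraries against WT (-0.07).

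**Figure D4:**
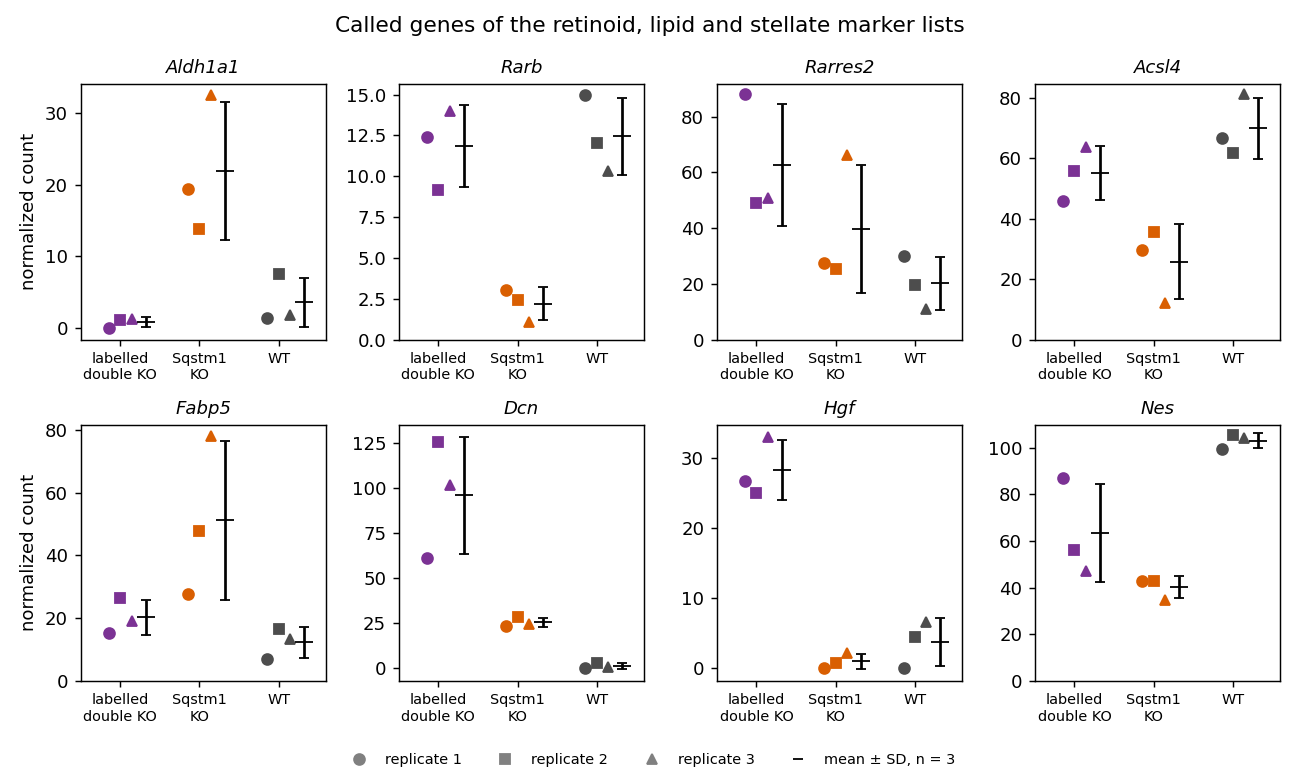
Normalized counts (vertical axes) of called genes from the lists of retinoid, lipid and stellate cell genes, in the DKO-labelled libraries, Sqstm1 KO and WT; symbols are replicates and bars are mean ± SD, n = 3. Rarres2, Dcn and Hgf have their highest mean in the DKO-labelled libraries, Aldh1a1 and Fabp5 in Sqstm1 KO, and Acsl4 and Nes in WT.

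Of 23 stellate cell markers 9 were tested, Hand2, Angptl6 and Ecm1 among them. Of the 9, 3 rose and 0 fell in the DKO-labelled libraries against Sqstm1 KO (median log2 fold change 0.60). Against WT 3 rose and 0 fell (0.68), and in Sqstm1 KO against WT 2 rose and 2 fell (-0.08). Of all tested genes 5.93%, 6.42% and 5.61% were called in the same order, with medians of -0.01, -0.02 and -0.01. These counts include the calls of Hand2 and Angptl6 given above. Dcn, the proteoglycan decorin, had 61.2, 126 and 102 normalized counts in the DKO-labelled libraries, 23.5, 28.4 and 24.9 in Sqstm1 KO, against 0, 3.01 and 0.606 in WT. Dcn reached 10 only in the knock-out libraries, so it passed the filter through the groups where it was higher. In WT it rested on 0, 4 and 1 reads. It was called higher in both knock-out groups against WT (log2 fold change 5.65 and 3.83, SE 0.48 each; limma adjusted p = 7.58e-06 and 0.000305). Hgf, hepatocyte growth factor, had 26.8, 25.1 and 33.1 normalized counts in the DKO-labelled libraries, 0, 0.812 and 2.17 in Sqstm1 KO, against 0, 4.52 and 6.67 in WT. Hgf reached 10 only in the DKO-labelled libraries, so it passed the filter through its highest group alone. From 76 reads against 3 it was 29.3-fold higher in the DKO-labelled libraries than in Sqstm1 KO. The 95% counting interval, 9.66 to 145, leaves out the spread between libraries. In limma, Hgf had a log2 fold change of 4.02 (SE 0.75, adjusted p = 0.00479). Against WT it was also called (adjusted p = 0.0250), a call that ended without WT replicates 1 or 2 (0.0792 and 0.0539) or DKO-labelled replicates 1, 2 or 3 (0.0803, 0.0560 and 0.112).

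Nes, the intermediate filament nestin, had 63.4 ± 21.0 normalized counts in the DKO-labelled libraries, 40.2 ± 4.76 in Sqstm1 KO and 103 ± 3.21 in WT (SD, n = 3). It was lower in Sqstm1 KO than in WT (limma adjusted p = 0.0101), a call that ended without WT replicate 2 (0.0632). Pdgfrb, the receptor that marks stellate cells, had 66.2 ± 11.0, 52.9 ± 8.56 and 55.9 ± 9.53 in the same order and was not called.

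Activation markers were all tested, 20 of 20. In the DKO-labelled libraries against WT 11 rose, 0 fell and 9 were not called (median log2 fold change 1.18). Of all tested genes 4.11% were called higher and 2.31% lower there, with a median of -0.02. In Sqstm1 KO against WT 9 rose, 0 fell and 11 were not called (median 1.04). Of all tested genes 2.43% were called higher and 3.18% lower there, with a median of -0.01. Acta2, smooth muscle actin, had 266, 545 and 335 normalized counts in the DKO-labelled libraries, 632, 908 and 918 in Sqstm1 KO, against 77.6, 81.4 and 94.6 in WT. The collagen gene Col1a2 had 1733 ± 205 in the DKO-labelled libraries, 2110 ± 249 in Sqstm1 KO and 293 ± 10.9 in WT (SD, n = 3). Col1a2 was called higher in both knock-out groups against WT (limma adjusted p = 3.36e-05 and 1.70e-05). Smooth muscle markers, 4 of 6 with values, summed to 93.0 to 142, 210 to 235 and 20.4 to 37.7 in the same groups. Portal fibroblast and mesothelial markers, 5 of 12 with values, summed to 335 to 359 in the DKO-labelled libraries, 242 to 435 in Sqstm1 KO and 206 to 246 in WT. The part of either list in these counts, and in the values of Dcn, was not tested. The 3 groups did not overlap for Acta2, and Plin2 and Acta2 therefore stood in opposite order in the WT and knock-out libraries. Between the knock-out groups 2 markers rose and 2 fell (median 0.01), where 4.42% of all tested genes were called higher and 1.51% lower. Those higher in the DKO-labelled libraries were Pdgfra, a growth factor receptor, and Tnc, the matrix protein tenascin C (limma adjusted p = 0.00228 and 0.00343). Those lower were Col6a3, a type VI collagen chain, and Acta2 (adjusted p = 0.0204 and 0.0316). The call of Col6a3 ended without Sqstm1 KO replicates 1 or 2 (0.0844 and 0.0862) or DKO-labelled replicates 1 or 3 (0.0667 and 0.0904). That of Acta2 ended without WT replicates 2 or 3 (0.0655 and 0.0530), Sqstm1 KO replicate 2 (0.0862) or DKO-labelled replicates 1 or 3 (0.146 and 0.135), and both were lost with only the compared groups in the fit (0.0616 and 0.110). Tnc and Pdgfra share exon bases with non-coding genes on the other strand.

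The families of the other secreted members were mostly uncalled. Of 10 angiopoietin and angiopoietin-like genes, 3 were tested and limma called Angptl6 alone in any comparison. Angptl2 had 16.2 ± 6.68 normalized counts in the DKO-labelled libraries, 12.4 ± 3.04 in Sqstm1 KO and 33.0 ± 5.27 in WT (limma adjusted p = 0.0548 for Sqstm1 KO against WT), a difference that edgeR and DESeq2 called. Of the 18 genes for latent TGF-beta and its activators, the list that held Ecm1, 11 were tested. Ltbp2, a latent TGF-beta binding protein, had 166 ± 52.5, 52.5 ± 20.0 and 66.8 ± 6.47 normalized counts in the DKO-labelled libraries, Sqstm1 KO and WT (SD, n = 3). It was called higher in the first group against Sqstm1 KO (adjusted p = 0.00675) and against WT (adjusted p = 0.0342), and the second call ended without WT replicates 1, 2 or 3 (0.0795, 0.130 and 0.137) or DKO-labelled replicates 1 or 3 (0.135 and 0.150). Ltbp2 shares exon bases with D030025P21Rik on the other strand. Ltbp1, of the same family, had 244 ± 4.32, 314 ± 29.5 and 461 ± 43.5 in the same order. It was lower in the DKO-labelled libraries than in WT (adjusted p = 0.0267), a call that ended without WT replicates 2 or 3 (0.138 and 0.127) or DKO-labelled replicates 1, 2 or 3 (0.0776, 0.0634 and 0.0957). Limma, edgeR and DESeq2 called 0 of the 11 in Sqstm1 KO against WT, with 2 at an unadjusted p under 0.05. Of the reelin signalling genes 9 of 11 and of the neurotrophin genes 4 of 16 were tested, and limma called 0 in each comparison. At an unadjusted p under 0.05 there were 0 reelin genes in the DKO-labelled libraries against Sqstm1 KO, 2 against WT and 0 in Sqstm1 KO against WT, and edgeR and DESeq2 called 0 in each. Of the neurotrophin genes 1, 1 and 0 were under an unadjusted p of 0.05 in the same comparisons. That gene was Bex3, named after its values were seen, and edgeR and DESeq2 called it in both comparisons of the DKO-labelled libraries.

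Likeness was measured by the root mean square difference between centred log2 profiles over the 9 libraries. Genes named Gm plus digits or ending in Rik were left out, which left 8653 tested genes to set beside each member. Among these, the genes with the profile most like that of each tested member were taken. For Hand2 they were Lsmem2, Pfkp and Phf14, at 0.27, 0.28 and 0.30. For Angptl6 they were Ercc2, Nlgn4l and Tgfbr3, at 0.56, 0.68 and 0.79. Tgfbr3, the TGF-beta co-receptor betaglycan, had 79.9 ± 3.99 normalized counts in the DKO-labelled libraries, 4.81 ± 1.72 in Sqstm1 KO and 40.7 ± 6.92 in WT (SD, n = 3). For Ecm1 they were Ankrd10, Rrbp1 and Mbd3, at 0.14, 0.16 and 0.16, for Plin2 Chn1os3, Rfxap and Parp6, at 0.29, 0.29 and 0.29, and for Lpl Vegfb, Rnf141 and Rnf213, at 0.37, 0.37 and 0.38. Vegfb, a vascular growth factor, had 19.8 ± 5.19, 6.25 ± 5.20 and 15.7 ± 2.73 normalized counts in the DKO-labelled libraries, Sqstm1 KO and WT. Among the members themselves the nearest pair was Hand2 and Ecm1, at 0.75, and the farthest was Hand2 and Angptl6, at 2.82. Pfkp, Ercc2, Chn1os3, Rnf141 and Rnf213 share exon bases with a gene on the other strand. Each list of 3 nearest genes is a description of these 9 libraries.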

How the data were processed

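RNA of cultured hepatic stellate cells had been sequenced in 9 libraries, 3 per genotype. The submitters' processing notes name STAR, DESeq2 and the build GRCm39, without versions. Library kit, strandedness, read counter, annotation and filters are not stated in the labels or these notes. As deposited, the signal values are gene counts divided by size factors by the authors: 100% of 121126 values above 0 gave whole reads within 0.01 of a whole number. Recovered reads were used for depth, for edgeR 4.0.16, for DESeq2 1.42.0 and for counting intervals. These intervals pool the reads of the 3 libraries of a group and cover counting error only.

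Groups were taken from the labels. Values were taken as log2(value + 1), so fold changes of low genes are understated. Genes that reached 10 in 3 or more libraries (10118 of 14020) were fitted with limma 3.58.1 in R 4.3.3 (3 groups, no covariate, trended variance, two-sided, Benjamini-Hochberg over all tested genes, called at adjusted p under 0.05). This log-scale test was the main one because the deposited values are normalized, and count models on the recovered reads were alternatives. The fit was tested on simulated data. An exact permutation test of 3 against 3 libraries cannot go below p = 0.1. Names and exon overlaps came from GENCODE M21 and RefSeq on GRCm38, matched for 12509 genes (89.2%). No coordinates were mixed between builds.

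Named genes were, for each list and comparison, up to 2 called genes higher and 2 lower by p, plus each member, its overlap partners and its 3 most similar genes. Uncalled relatives (Plin3, Plin4, Abhd5, Lipe, Angptl2, Pdgfrb) were named after their values were seen. The members and lists were chosen with earlier results of these data known. Alternatives were another pseudocount, 2 filters, 2 scalings, edgeR, DESeq2, a fit of only the 2 groups compared, a replicate block, and each library left out. One result on vitamin A handling is not reported here.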

Additional observations from a re-analysis of the deposited data

How the results depend on the processing

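Genes called in the DKO-labelled libraries against Sqstm1 KO, the DKO-labelled libraries against WT and Sqstm1 KO against WT numbered 600, 650 and 568. Requiring 50 or more in 3 libraries gave 291, 360 and 290, where fewer genes were tested. With only the 2 compared groups in the fit they were 352, 1229 and 421, and with 1 library left out they ran from 333 to 777, 294 to 1409 and 264 to 659. Other settings stayed within 1.5 times. Members called ran from 2 to 2, 1 to 2 and 2 to 4 with a library left out. The stricter filter left 1 member called in the first comparison, since Lpl was no longer tested, and only the 2 compared groups or DESeq2 gave 3 in the second. Under the alternatives, fold changes of named genes that were called kept their call 552 times and lost it 65 times. Those not called stayed uncalled with their direction 183 times, were called 6 times and reversed 1 time: Ecm1 between the knock-out groups, at -0.25 without DKO-labelled replicate 1 (-0.25 to 0.37 over the libraries left out). The replicate block gave 672, 754 and 690 genes and 2, 2 and 4 members. Same-numbered libraries correlated at -0.12 to 0.18 in their deviations from group means, and other pairs at -0.26 to 0.26. Not every same-numbered pair was above 0.1, so the numbers were not taken as pairing, while 5 of 9 libraries correlated best with their own number in both other groups, a hint from the data and not from the design. Depth limits Pnpla2, Angptl6 and Lpl in Sqstm1 KO, which rest on fewer than 10 reads per library.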
